A study of Mus musculus with 5 samples.

Results

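Nuclei in the cell cycle were described across the lineages of mouse liver. A nucleus was called cycling when it held at least 1 UMI in at least 3 of 8 genes of chromosome segregation and division (Top2a, Mki67, Cenpf, Prc1, Knl1, Kif23, Kif15 and Cenpe), so the members were chosen by their measured panel counts. Of 48533 nuclei with at least 300 genes and under 10% mitochondrial UMIs, 440 were cycling: 104 of 30113 in chow livers and 336 of 18420 in MASH livers. A UMI is a molecular tag that counts 1 captured RNA molecule. All mice were wild-type C57BL6/J males. The 3 chow libraries came from mice on regular chow and the 2 MASH libraries from mice on a diet with 40% of energy as fat, 20% of energy as fructose and 2% cholesterol. Both feeding regimes ran for 5 months from 10 to 12 weeks of age, and the MASH diet is a model of metabolic dysfunction-associated steatohepatitis. Nuclei of snap-frozen liver were sorted by flow cytometry before droplet capture, so every share below is a share of sorted nuclei, and whether a library holds 1 mouse or a pool is not stated in the labels.

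Cell division runs from a first gap phase (G1) through DNA synthesis (S phase) and a second gap phase (G2) to mitosis (M phase). In adult liver most hepatocytes rest outside this cycle and can re-enter it after injury, while immune cells that reside in or arrive at the liver divide there at a low rate. Genes needed for G2 and M phase are held silent in resting cells and are switched on together late in the cycle, through promoters that carry CCAAT boxes (bound by NF-Y) and a cell cycle homology element, TTTGAA in its commonest form. Genes needed for S phase often carry an E2F site such as TTTCCCGC.

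These promoter elements are shown for 2 panel genes, Top2a (topoisomerase II alpha, which untangles replicated DNA) and Mki67 (the Ki-67 protein that coats mitotic chromosomes), and for 2 genes outside the panel, Ckap2l (a spindle protein) and Kif11 (the kinesin that pushes spindle poles apart). The sequences are RefSeq promoters of build GRCm38.p6, from 250 bases before to 30 bases after the gene start, 5′ to 3′ on the gene's strand. Capitals mark CCAAT and TTTGAA on either strand, which read ATTGG and TTCAAA on the other strand. The windows are chr11:99024160-99024439 (minus strand) for Top2a, chr7:135716350-135716629 (minus) for Mki67, chr2:129297183-129297462 (minus) for Ckap2l and chr19:37376132-37376411 (plus) for Kif11.
Top2a: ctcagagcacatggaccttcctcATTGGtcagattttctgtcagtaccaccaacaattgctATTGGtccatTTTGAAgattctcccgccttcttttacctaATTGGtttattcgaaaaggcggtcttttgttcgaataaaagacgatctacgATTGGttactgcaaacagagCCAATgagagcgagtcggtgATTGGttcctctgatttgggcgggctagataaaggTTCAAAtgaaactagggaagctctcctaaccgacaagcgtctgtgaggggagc
Mki67: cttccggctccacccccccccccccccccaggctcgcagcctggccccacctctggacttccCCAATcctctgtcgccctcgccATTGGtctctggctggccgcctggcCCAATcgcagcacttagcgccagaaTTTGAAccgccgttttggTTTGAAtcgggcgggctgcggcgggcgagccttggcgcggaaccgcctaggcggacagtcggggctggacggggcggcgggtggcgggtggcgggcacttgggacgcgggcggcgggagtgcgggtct
Ckap2l: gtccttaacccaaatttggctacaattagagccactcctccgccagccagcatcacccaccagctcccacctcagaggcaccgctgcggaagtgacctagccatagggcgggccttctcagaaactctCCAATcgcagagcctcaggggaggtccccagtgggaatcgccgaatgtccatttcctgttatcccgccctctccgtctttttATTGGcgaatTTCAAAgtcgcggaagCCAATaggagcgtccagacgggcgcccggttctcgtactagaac
Kif11: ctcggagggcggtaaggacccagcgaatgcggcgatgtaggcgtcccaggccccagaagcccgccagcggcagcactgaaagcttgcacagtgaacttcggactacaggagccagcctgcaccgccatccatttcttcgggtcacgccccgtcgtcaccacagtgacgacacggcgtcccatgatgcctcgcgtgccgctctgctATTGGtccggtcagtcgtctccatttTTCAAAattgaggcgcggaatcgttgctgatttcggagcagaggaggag
The Top2a window held 6 CCAAT and 2 TTTGAA matches, Mki67 3 and 2, Ckap2l 3 and 1, and Kif11 1 and 1.

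Over the full RefSeq windows, which run to 50 bases after the start, TTTGAA occurred in 88.9% of the 9 promoters of the 8 panel genes and in 17.9% of all 32851 promoters. In the list of G2 and M phase genes, 63.8% of 47 promoters held TTTGAA and 57.4% held at least 2 CCAAT boxes, against 11.7% of all promoters for the latter. Both features together occurred in 42.6% of G2 and M phase promoters and 2.09% of all promoters. In the list of S phase genes, TTTGAA occurred in 17.6% of 34 promoters and TTTCCCGC in 14.7%, against 1.07% of all promoters for TTTCCCGC. At least 2 CCAAT boxes were not particular to G2 and M phase genes, since 44.1% of S phase promoters held them. Of the panel promoters, 33.3% did. Both features together occurred in 5.88% of S phase promoters. Each motif was counted on its own, and a match describes the sequence only.

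The 5 libraries held 35612373 to 49137377 UMIs in all their listed nuclei, and the median nucleus kept held 2124 to 3910. The mitochondrial limit removed 40.5% of the nuclei of MASH replicate 1, 12.4% of chow replicate 2 and 2.58% to 5.86% of the other 3 libraries. Chow replicate 1 stood apart by cycling nuclei of low depth with granulocyte genes, described further on. Between 23 and 48 barcodes were shared by any pair of libraries. A doublet caller (Scrublet) marked 3 nuclei of chow replicate 1 and none of the other libraries at its own threshold, which is too few to have worked, so the highest scores were used instead at a rate of 0.8% per 1000 nuclei. Of the 440 cycling nuclei, 49 ranked among them. In library order, chow first, these were 2.33%, 11.9%, 5.26%, 9.15% and 15.7% of cycling nuclei, against 7.10%, 11.3%, 8.86%, 10.2% and 9.57% of all kept nuclei.

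Mki67 was the panel gene most often seen, with a UMI in 365 of 440 cycling nuclei (83.0%), and Top2a was seen in 343 (78.0%). Cenpf, a kinetochore protein, was seen in 259, Knl1, the kinetochore scaffold, in 257, and Prc1, which bundles the midzone of the spindle, in 254. The kinesins Kif23, Kif15 and Cenpe were seen in 245, 225 and 183. In the nuclei not called cycling, each of the 8 genes had a UMI in 0.202% to 0.848%. These shares describe the choice and are not a result.

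The threshold cut through a sloping distribution. Exactly 3 panel genes were seen in 127 nuclei (median 2406 UMIs) and exactly 2 in 231 nuclei (median 2817 UMIs), which were left out. At least 3 genes of a second panel with no gene in common (Kif11, Aspm, Anln, Tpx2, Bub1, Bub1b, Kif4 and Ect2) were seen in 8 of the 127 and 5 of the 231, and in 28 of the 32 nuclei with all 8 panel genes. Over all kept nuclei, 138 passed the second panel, and 132 of them were cycling by the first. The second panel found 6, 13 and 7 nuclei in the chow libraries and 45 and 67 in the MASH libraries.

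Cycling nuclei made up a larger share of both MASH libraries than of any chow library. In chow replicates 1, 2 and 3 the counts were 43 of 8113, 42 of 11307 and 19 of 10693 nuclei, or 0.530% (95% exact binomial interval 0.384 to 0.713), 0.371% (0.268 to 0.502) and 0.178% (0.107 to 0.277). In MASH replicates 1 and 2 they were 164 of 7634 and 172 of 10786 nuclei, or 2.15% (1.83 to 2.50) and 1.59% (1.37 to 1.85). The intervals cover counting error only. The chow mean was 0.360% ± 0.176 (SD, n = 3) and the MASH mean 1.87% ± 0.391 (SD, n = 2), a difference of 1.51 percentage points and a 5.20-fold ratio. The diets did not overlap, and the two-sided exact permutation test over libraries gave p = 0.1, the smallest value that 3 against 2 libraries allow.

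**Figure D1:**
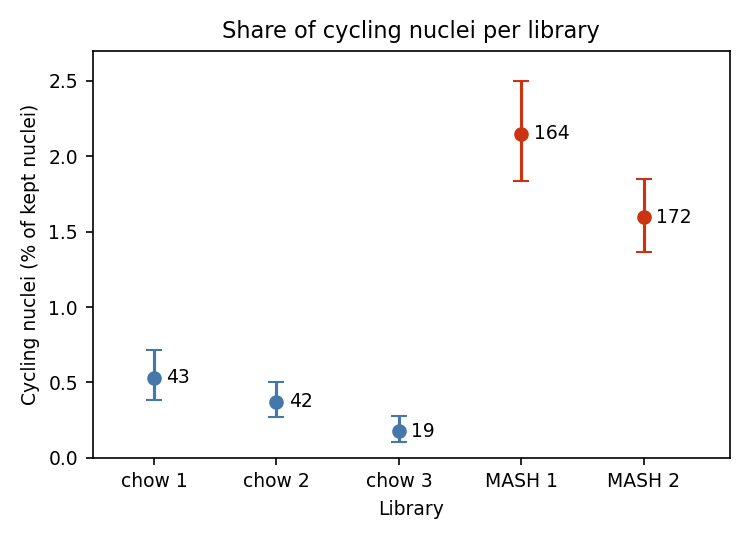
Cycling nuclei as a percentage of kept nuclei in each library (vertical axis), chow in blue and MASH in red, with 95% exact binomial intervals as bars and the number of cycling nuclei beside each point. The 3 chow libraries lay between 0.178% and 0.530%, below both MASH libraries at 1.59% and 2.15%.

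Both MASH shares stayed above every chow share when nuclei were set to equal depth. Thinning each nucleus to 1000 UMIs left out 1877 chow and 2856 MASH nuclei, and the chow shares were then 0.0833%, 0.110% and 0.0593%. They were 1.03% and 0.910% in MASH replicates 1 and 2. With the second panel the chow shares were 0.0740%, 0.115% and 0.0655% and the MASH shares 0.589% and 0.621%. With at least 4 panel genes and all nuclei of several lineages removed, the chow shares were 0.117%, 0.135% and 0.0929% and the MASH shares 1.03% and 0.925%. Each of these gave the same exact permutation p = 0.1. Without the mitochondrial limit, MASH replicate 1 had 208 cycling nuclei and a share of 1.62%.

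Lineage was read from at least 1 UMI of Hnf4a (a transcription factor of hepatocytes), Ptprc or Cd84 (immune cells), Ptprb (endothelial cells), Pkhd1 (cholangiocytes, the cells of bile ducts) and Col3a1 or Reln (stellate cells). Of the 440 cycling nuclei, 169 carried markers of 1 lineage: 71 immune, 31 stellate, 29 endothelial, 27 hepatocyte and 11 cholangiocyte. Another 196 carried markers of several lineages and are possible doublets, and 75 carried none. Under longer marker lists, which needed at least 2 UMIs of 1 lineage and fewer of all others, 21 of the 27 hepatocyte calls, 27 of the 71 immune calls, 13 of the 29 endothelial calls, 3 of the 11 cholangiocyte calls and 6 of the 31 stellate calls kept their class. Of the immune calls, 42 counted as several lineages under the longer lists. Hepatocyte was the new class of 28 of the 75 unmarked nuclei, 13 of the 196 of several lineages and 5 of the 11 cholangiocyte calls, and 22 nuclei of the 75 stayed unmarked. Pooled over libraries, at least 1 immune UMI was found in 50.2% of cycling nuclei and 11.7% of other nuclei, and a hepatocyte UMI in 35.7% and 51.0%. By library, chow first, a hepatocyte UMI was in 37.2%, 64.3%, 52.6%, 34.8% and 27.3% of cycling nuclei. In the other nuclei it was in 53.9%, 64.7%, 69.3%, 34.7% and 27.0%, so the pooled gap was absent in chow replicate 2 and both MASH libraries. The immune share was higher in the cycling nuclei of every library.

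Cycling hepatocyte nuclei were rare within their lineage. The chow libraries held 2 of 3346, 7 of 6410 and 3 of 6474 (0.0598%, 0.109% and 0.0463%), and the MASH libraries 7 of 1357 and 8 of 1313 (0.516% and 0.609%). The means were 0.0718% ± 0.0331 (SD, n = 3) and 0.563% ± 0.0661 (SD, n = 2). The diets did not overlap, and the means differed by 0.491 percentage points.

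Immune nuclei had the highest cycling share of the 5 lineages in each chow library under the main rule. The counts were 3 of 193, 2 of 87 and 4 of 239 in chow (1.55%, 2.30% and 1.67%) and 27 of 825 and 35 of 1160 in MASH (3.27% and 3.02%). The groups did not overlap, but the 95% exact intervals of all chow libraries covered the MASH shares. Without the mitochondrial limit the immune difference was 0.0159 percentage points in place of 1.30 (exact permutation p = 1.0), with chow shares from 1.79% to 3.4% and MASH shares of 2.23% and 2.78%. The longer lists gave p = 0.3 and the second panel p = 0.5 in the same exact test. The first rank of immune nuclei in chow did not hold in all settings. Thinned to 1000 UMIs, the chow immune shares were 1.01%, 0% and 0%, and the stellate shares 0%, 0.820% and 0.469%. With the longer lists the immune share of chow replicate 2 was 0%, against 1.49% for endothelial nuclei.

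Endothelial nuclei cycled at 0.215%, 0.926% and 0.680% in the chow libraries (1, 2 and 2 nuclei) and at 3.65% and 2.89% in the MASH libraries (8 and 16 nuclei). Stellate nuclei, the collagen-producing cells that drive fibrosis, cycled at 0%, 0.645% and 0.342% in chow (0, 1 and 1 nuclei) and at 2.30% and 0.989% in MASH (16 and 13 nuclei). No cycling cholangiocyte was seen among 109, 74 and 46 chow nuclei, counts of 0 that allow shares of up to 2.75%, 4.05% and 6.52% (3 counts of each total). In MASH replicates 1 and 2, 3 of 385 and 8 of 985 cholangiocyte nuclei cycled (0.779% and 0.812%), which is under those limits, so a diet difference in cholangiocytes was not detectable at this depth. Thinned to 1000 UMIs, stellate shares were 0%, 0.820% and 0.469% in chow and 1.52% and 1.08% in MASH (exact permutation p = 0.2).

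For each of the 5 lineages the two-sided exact permutation test gave p = 0.1 (0.1 after Benjamini-Hochberg adjustment over the 5), again the smallest possible. The ratios of MASH to chow means were 7.84 for hepatocyte, 5.39 for endothelial, 4.99 for stellate and 1.71 for immune nuclei. Whether these ratios differ between lineages was not tested. The endothelial and stellate ratios rested on 0 to 2 cycling nuclei per chow library. The upper exact limits of the stellate shares were 0.864%, 3.54% and 1.89% in chow, so only chow replicate 2 covered both MASH shares. With the second panel, stellate shares overlapped (exact permutation p = 0.4). They were 0%, 0.645% and 0% in chow and 0.574% and 0.457% in MASH. In the same setting and test, p was 0.2 for endothelial and 0.1 for hepatocyte nuclei. The hepatocyte shares there were 0.0299%, 0.0624% and 0% in chow and 0.0737% and 0.152% in MASH. Chow replicate 2 thus lay close to MASH replicate 1. The nuclei of several lineages cycled at 1.34%, 2.18% and 0.693% in chow and at 4.23% and 2.42% in MASH.

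**Figure D2:**
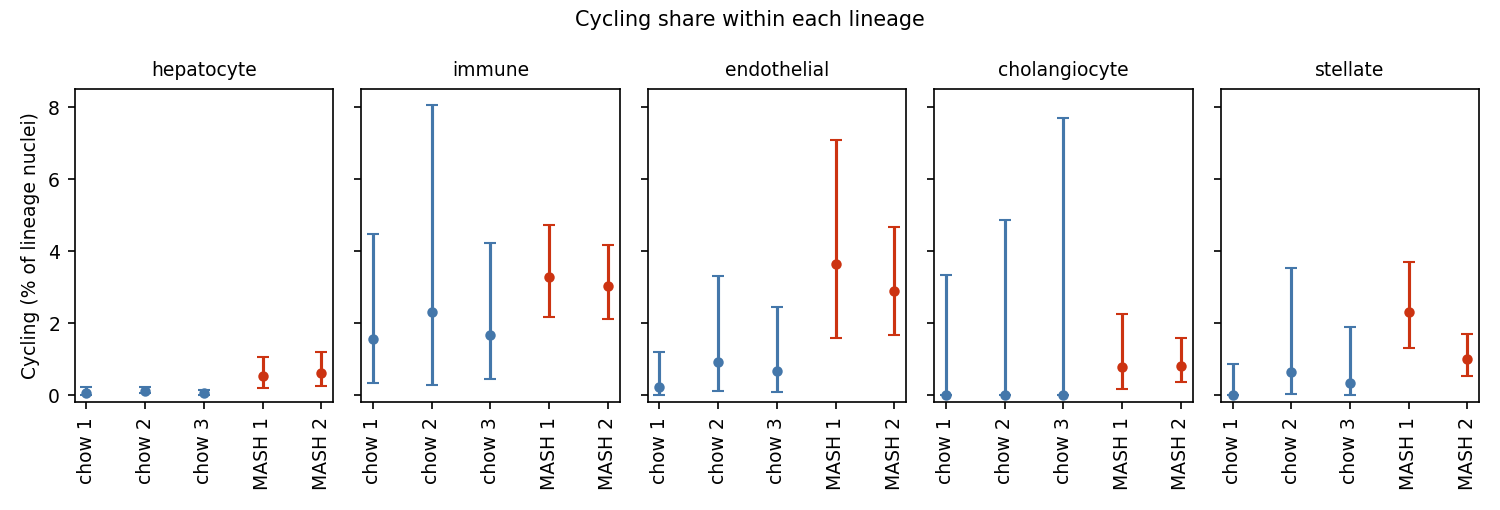
Cycling nuclei as a percentage of the nuclei of each single lineage, by library, with chow in blue, MASH in red and 95% exact binomial intervals as bars. Hepatocyte shares stayed at or below 0.609% while immune shares lay between 1.55% and 3.27%, and the chow points for cholangiocytes lay at 0%.

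The lineage make-up of the cycling nuclei was compared between diets and with other nuclei of the nearest depth. Between diets, no class passed (adjusted exact permutation p = 0.7 for each of 7 classes), and with 3 against 2 libraries none could. The diets did not overlap for cholangiocyte nuclei, at 0% in all chow libraries and 1.83% and 4.65% in MASH (unadjusted exact p = 0.1), nor for stellate nuclei, at 0%, 2.38% and 5.26% in chow and 9.76% and 7.56% in MASH (unadjusted exact p = 0.2). Hepatocyte nuclei were 12.4% ± 6.70 of cycling nuclei in chow (SD, n = 3) and 4.46% ± 0.271 in MASH (SD, n = 2), immune nuclei 10.9% ± 8.84 and 18.4% ± 2.75, and nuclei of several lineages 42.1% ± 6.95 and 45.0% ± 6.15. Nuclei with no lineage marker were 46.5% of chow replicate 1 and 10.5% to 21.4% of the other 4 libraries.

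Cycling nuclei carried several lineages more often than nuclei of the same library with the nearest total UMIs. In library order, chow first, 39.5%, 50%, 36.8%, 49.4% and 40.7% of cycling nuclei did so, against 19.2%, 18.1%, 19.2%, 29.5% and 31.5% of 20 depth-matched nuclei for each cycling nucleus. The share was higher in 5 of 5 libraries by 19.8 points on average (two-sided exact sign-flip permutation p = 0.0625, the smallest that 5 libraries allow, and 0.109 adjusted over 7 classes). Immune nuclei were also a larger share in 5 of 5 libraries, 13.9% against 5.01% on average. Hepatocyte nuclei were a smaller share in 5 of 5, 9.21% against 32.8%, and cholangiocyte nuclei in 5 of 5, 1.30% against 3.45%, with the same exact p = 0.0625 for each. Endothelial, stellate and unmarked nuclei lay on either side. The median UMIs of cycling and depth-matched nuclei were 1218 and 1217, 5078 and 5079.5, 2772 and 2772, 3873 and 3871, and 2679 and 2679.5 in library order. How closely the deepest cycling nuclei, of up to 78038 UMIs, were matched was not measured.

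**Figure D3:**
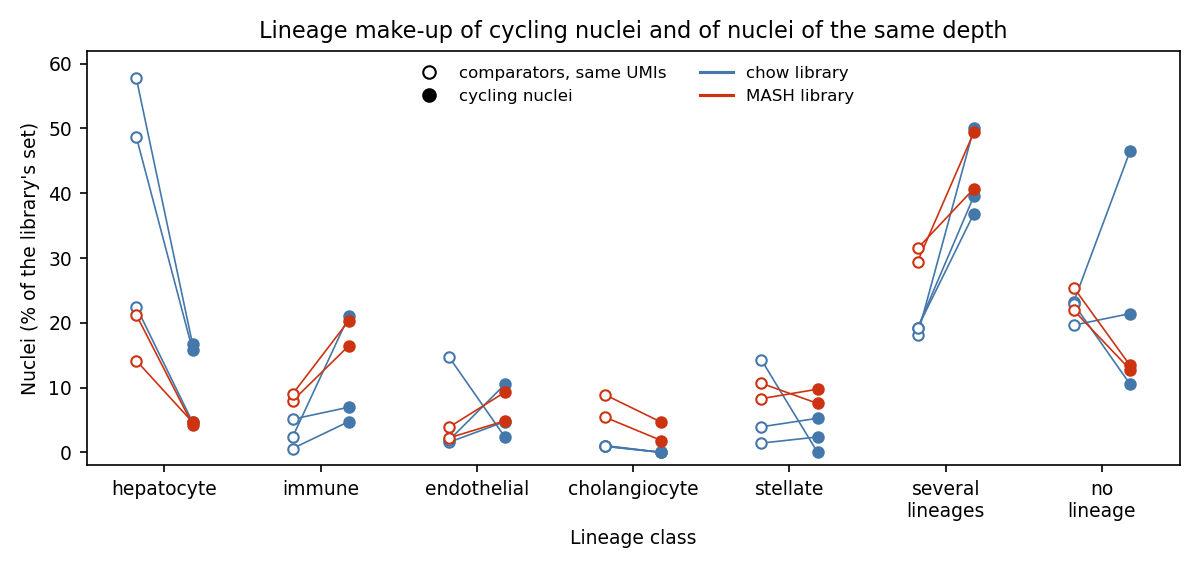
Percentage of nuclei in each lineage class among depth-matched comparators (open circles) and cycling nuclei (filled circles) of each library, joined by lines, with chow in blue and MASH in red. The lines fall in all 5 libraries for hepatocytes and rise in all 5 for several lineages.

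Pooled over libraries, cycling nuclei with markers of more lineages were deeper. The 75 cycling nuclei with no lineage had a median of 1394 UMIs, the 169 with 1 lineage 2042, the 88 with 2 lineages 4292, the 50 with 3 lineages 8166, the 41 with 4 lineages 12825 and the 17 with 5 lineages 30238. The order was not strict within libraries: in MASH replicate 1 the median was 3304.5 with no lineage and 2254 with 1, in chow replicate 2 it was 5463.5 with 1 and 5105 with 2, and the 20 unmarked nuclei of chow replicate 1 had the lowest, 695.5. The most frequent combination was hepatocyte, immune, endothelial and stellate markers together, in 22 nuclei, followed by hepatocyte and immune in 20. The part of doublets, free RNA and depth in these combinations was not tested.

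The gene content of cycling nuclei was measured on summed UMIs per library. Each cycling nucleus was set against 20 nuclei of the same library and lineage class with no panel UMI and the nearest total UMIs, and the panel genes were left out of the tests. Levels are CPM, the summed UMIs scaled to a common library total, and differences are log2 from edgeR's quasi-likelihood test with the library as a block and Benjamini-Hochberg adjustment. Of 12931 genes, 1186 were higher (9.17%) and 1220 lower (9.43%) in cycling nuclei. Depth was not matched equally well in all libraries. The mean UMIs of cycling and comparator nuclei were 7608 and 3890 in MASH replicate 1, 13899 and 7415 in chow replicate 3, 8366 and 6289 in chow replicate 2, and 5005 and 4101 in MASH replicate 2. In chow replicate 1 the means were 3954 and 4103 and the medians 1218 and 1802.5.

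Kif11 had the smallest p of all genes. Its level was 112, 56.9 and 49.2 CPM in the cycling nuclei of chow replicates 1, 2 and 3 and 85.0 and 168 CPM in those of MASH replicates 1 and 2, against 0.355 to 2.55 CPM in the comparators (log2 difference 5.62 ± 0.214 SE, edgeR adjusted p = 6.17e-24). Every cycling sum lay above every comparator sum. Aspm, a spindle pole protein, behaved alike at 124, 76.8, 26.5, 79.3 and 151 CPM in the same order, against 1.49 to 2.13 CPM (log2 5.57 ± 0.227, edgeR adjusted p = 2.36e-23). All 8 genes of the second panel were higher. The members were chosen by genes of segregation and division, and the comparators had no panel UMI. A rise of other mitotic genes is therefore not independent of the choice.

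The 15 largest rises among genes with the same direction in all 5 libraries and at least 20 UMIs were Depdc1a, Kif14, Ska1, Troap, Cdc25c, Pif1, Ckap2l, Iqgap3, Bub1, Neil3, Pimreg, Cep55, Ttk, Sapcd2 and Sgo1, at log2 6.58 to 8.06. They include a kinesin of cytokinesis (Kif14), an outer kinetochore protein (Ska1), the phosphatase that starts mitosis (Cdc25c), checkpoint kinases (Bub1 and Ttk), the guardian of sister chromatid cohesion (Sgo1) and a protein of the final cut between daughter cells (Cep55). Troap had 41.2, 39.8 and 22.7 CPM in the chow cycling nuclei, 41.7 and 69.7 CPM in the MASH cycling nuclei and 7 UMIs in all comparators (log2 7.76 ± 0.437). Neil3, a DNA glycosylase, had 64.7, 22.8, 11.4, 55.3 and 106 CPM over the 5 libraries in order and 18 UMIs in all comparators (log2 6.92 ± 0.355). Depdc1a had 62 UMIs in cycling nuclei and 2 in comparators, a ratio of 412 with an exact counting interval of 109 to 3481.

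The mitotic lists rose nearly whole, which is likewise not independent of the choice of members and comparators. In the list of mitotic kinesins 10 of 10 tested genes were higher (median log2 5.31, against −0.06 over all genes tested), in that of cytokinesis 7 of 7 (5.38), of mitotic cyclins and kinases 12 of 12 (4.31), of kinetochore and checkpoint 20 of 20 (4.0) and of condensin 8 of 8 (3.14). The list of G2 and M phase genes had 48 of 49 higher (3.52), with Cks1b at log2 0.85 (edgeR adjusted p = 0.120) as the exception, a name given after its value was seen. Kif20b, a kinesin of the cleavage furrow, rose by log2 4.28, the centromeric histone Cenpa by 3.02, the cytokinesis regulator Racgap1 by 5.59, and the aurora kinase Aurkb by 6.26.

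Genes of DNA synthesis rose by less. The members were chosen by genes of chromosome segregation and division, so this contrast with the mitotic lists is not independent of the choice. In the list of S phase genes 33 of 41 were higher (median log2 1.65), and in that of replication licensing and fork 16 of 22 (1.57). Atad2, a chromatin protein, rose by log2 2.50, Pola1, the catalytic subunit of the primase polymerase, by 1.86 and Pold3 of polymerase delta by 0.89, while Mcm10 had log2 −0.32 (edgeR adjusted p = 0.103). Repair genes of S phase were higher in 13 of 13 (3.96), including Brca1 at log2 3.48 and Brca2 at 1.56. The transcription factors of the cycle were higher in 7 of 10 (1.10), led by Foxm1, an activator of G2 and M phase genes. Foxm1 had 29.4, 37.0, 15.1, 40.1 and 69.7 CPM in the 5 cycling sums in order, against at most 1.35 CPM in comparators (log2 5.41 ± 0.373, edgeR adjusted p = 1.42e-15).

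G1 genes were mixed. Of 8 G1 cyclins and kinases, Ccne2 (log2 2.62), Ccne1 (2.04) and Cdk2 (0.59), which drive entry to S phase, were higher, Cdk6 was lower (−0.36), and 4 did not pass, with Ccnd1 at log2 0.01 and Ccnd3 at 0.26. Of 8 genes in the list of CDK inhibitors and p53 targets, 3 were higher, Cdkn2c (3.20), Cdkn2d (2.75) and Cdkn1b (0.37), and none was lower. Cdkn1a, the p53 target that marks arrest, had log2 0.21 (edgeR adjusted p = 0.428) and Mdm2 −0.15 (adjusted p = 0.434). Ccne2, Ccne1, Cdkn2c and Cdkn2d were named after their values were seen. In the proliferation list of the study, 29 of 37 tested genes were higher and 1 was lower, and 5 more of its genes belong to the panel.

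**Figure D4:**
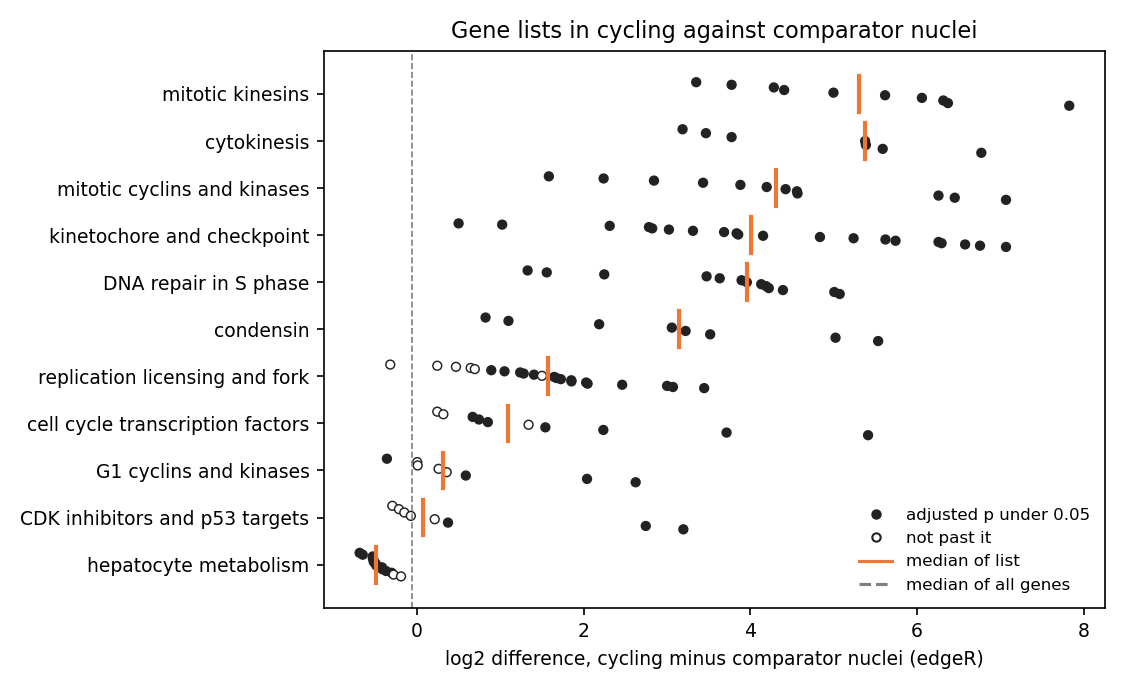
Log2 difference between cycling and comparator nuclei (horizontal axis) for each gene of 11 lists, filled where the edgeR adjusted p was under 0.05, with the median of each list in orange and that of all genes as a dashed line. Mitotic lists centred on 3.14 to 5.38, replication on 1.57, and hepatocyte metabolism on −0.49.

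Hepatocyte genes were lower in cycling nuclei than in comparators of the same lineage class and library. The class of several lineages, with 196 cycling nuclei, holds any combination of markers, so lineage was not matched within it. Only 27 cycling nuclei were hepatocyte calls, and these were not tested alone. Of 14 genes of hepatocyte metabolism 12 were lower and none was higher (median log2 −0.49). Alb, serum albumin, had 1753, 3845 and 2117 CPM in the chow cycling nuclei and 1821 and 1539 CPM in the MASH cycling nuclei, against 2462, 4413, 3242, 2391 and 1578 CPM in the comparators in the same order (log2 −0.53 ± 0.0920, edgeR adjusted p = 2.91e-05). It was lower in 5 of 5 libraries. Apob, the protein of very low density lipoprotein, Pck1, of glucose synthesis, and Fgb, a fibrinogen chain, had log2 −0.53, −0.52 and −0.49.

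The 10 largest falls in all 5 libraries were Gm10300, Gm47348, Proca1, B130034C11Rik, 1810053B23Rik, Bdnf, Zfp979, Gm34921, Gm30122 and Pfkm, at log2 −1.42 to −2.96, all with 14 or fewer UMIs in cycling nuclei. Gm10300 had 1 UMI in cycling nuclei and 112 in comparators, a ratio of 0.119 with an exact counting interval of 0.00298 to 0.675. Bdnf, a neurotrophin, had 11 and 458 UMIs (log2 −1.75 ± 0.416). In the erythroid list 4 of 5 genes were lower (median log2 −2.52), and most erythroid UMIs of the comparators were in MASH replicate 1.

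In the single-lineage nuclei alone, 404 genes were higher and 268 lower of 7711 tested, in 4 libraries since chow replicate 1 had under 10 such nuclei. All 10 mitotic kinesins, all 20 kinetochore and checkpoint genes and 28 of 30 S phase genes were higher there, and 4 of 14 hepatocyte genes were lower. Of 2024 calls that could be tested there, 103 had the other sign, 92 of them higher in the full comparison. The calls numbered 1415 without MASH replicate 1 and 1267 without MASH replicate 2. DESeq2 called 813 higher and 471 lower, and a fit without the library block called 163 higher and 1 lower, so nearly all falls were called only with the block.

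Cycling nuclei with more S phase than G2 and M phase UMIs were 9.30%, 11.9% and 0% in the chow libraries and 15.2% and 12.2% in the MASH libraries. The means were 7.07% ± 6.26 (SD, n = 3) and 13.7% ± 2.15 (SD, n = 2), with two-sided exact permutation p = 0.2. Thinned to 1000 UMIs the shares were 5.26% to 10% in chow and 17.3% and 14.2% in MASH (exact permutation p = 0.1, the smallest possible). G2 and M phase UMIs led in at least 82.3% of the cycling nuclei of each library. All 8 panel genes act in chromosome segregation or division.

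The immune members were described by subtype lists, with no test, since 9 were in chow. Of the 62 cycling immune nuclei of MASH livers, 30 had at least 2 UMIs of the monocyte list, 26 of the Kupffer cell list, the resident macrophages of liver, and 19 of the list of lipid-associated macrophages, which gather in fatty liver. The shares in their comparators were 48.2%, 27.8% and 46.4%, against 48.4%, 41.9% and 30.6% in cycling nuclei. For the Kupffer cell list both MASH libraries had a higher share in cycling nuclei, 59.3% against 33.0% in replicate 1 and 28.6% against 23.9% in replicate 2, while the CPM of the list was 980 against 711 in replicate 1 and 750 against 751 in replicate 2. In chow the share was lower in the cycling nuclei of all 3 libraries, 2 of 9 nuclei (22.2%) against 44.4%. For the lipid-associated list both were lower, 29.6% against 39.1% and 31.4% against 52.0%. In nuclei of several lineages it was higher in both, 74.1% against 31.7% and 77.1% against 49.7%, as it was over all MASH cycling nuclei, 50.6% against 35.8%. T and NK cell genes reached 2 UMIs in 4 of the 62 (6.45%, against 3.79% of comparators) and B cell genes in 1 (1.61% against 2.26%). In chow, 3 of the 9 cycling immune nuclei, 1 in each library, reached 2 UMIs of the T and NK cell list, against 1.67% of their comparators. Fn1 of the monocyte list is also made by hepatocytes. Spp1 of the lipid-associated list had 401 CPM in the unmarked MASH comparators and 456 CPM in the immune ones, while Gpnmb had 19.5 and 353 CPM. A nucleus can reach 2 UMIs of that list by Spp1 alone.

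Chow replicate 1 stood apart. Its 43 cycling nuclei had a median of 1218 UMIs, the lowest of the 5 libraries, and 20 of them had no lineage marker, with a median of 695.5 UMIs. Exactly 3 panel genes, the threshold, were seen in 16 of the 20, and 0% passed the second panel. Among these 20, genes of granulocyte precursors were found, which were named after their values were seen: Mpo (myeloperoxidase) in 7, Elane (neutrophil elastase) in 6, Prtn3 (proteinase 3) in 6 and Ctsg (cathepsin G) in 4. Mpo, Prtn3 and Ctsg had no UMI in any cycling nucleus of the other 4 libraries, and Elane had 1. Camp and Ngp, genes of later granules, were seen in 5 and 4 of the 43 and in no cycling nucleus elsewhere. In all, 12 of the 43 held at least 2 of 10 granule genes, against 1.75% of the other nuclei of that library. S100a9 had 2559 CPM in these cycling nuclei and 0 to 7.57 CPM in those of the other libraries. Removing nuclei with at least 2 UMIs of the neutrophil list (S100a8, S100a9, Retnlg, Csf3r and Mmp9) left 38 of the 43 in this library. The share was then 0.476% and the difference between diets 1.47 points. That list holds none of Mpo, Elane, Prtn3 and Ctsg, so some of the 12 nuclei with granule genes remained.

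Chow replicate 3 had the fewest members, 19, and the highest Jchain level. Jchain, which links immunoglobulin polymers, had 167 CPM in its cycling nuclei and 18.8 CPM in their comparators, and 2.32 to 35.3 CPM in the cycling nuclei of the other libraries. At least 2 UMIs of the plasma cell list were seen in 3 of its 4 cycling immune nuclei and in both of its cycling nuclei with no lineage marker, against 42.5% and 47.5% of their comparators. Xbp1 of that list is also made by hepatocytes.

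Between diets, 147 of 7318 genes (2.01%) differed in cycling nuclei by edgeR's quasi-likelihood test, 61 higher and 86 lower in MASH. The lineages are mixed in these sums. Comparator levels come from the same libraries and are given beside those of the cycling nuclei, with no test between them. Of the 39 tested G2 and M phase genes, the 22 S phase genes and the 8 mitotic kinesins, none was called between diets. Their median log2 differences were 0.42, 0.27 and 0.71, against −0.01 over all genes tested. With 2.01% of all genes called, few calls could fall in lists of this size. Nuclei of both diets also passed the same panel threshold, so the lack of calls does not show equal levels.

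Genes of the lipid-associated macrophage list and the collagen gene Col1a1 were higher in MASH. Gpnmb, a lysosomal glycoprotein of lipid-laden macrophages, had 0, 5.69 and 0 CPM in chow cycling nuclei and 93.8 and 96.4 CPM in MASH cycling nuclei, 2 against 200 UMIs, a ratio of 37.3 with an exact counting interval of 10.2 to 309.7 (edgeR adjusted p = 0.00432). Its comparators had 0 to 2.48 CPM in chow and 50.2 and 73.2 CPM in MASH. Spp1, osteopontin, had 5.88, 0 and 34.1 CPM in chow and 263 and 634 CPM in MASH (log2 4.89 ± 0.784, edgeR adjusted p = 0.0116), and its comparators had 13.1 to 14.2 CPM in chow and 257 and 516 CPM in MASH. Trem2, the lipid receptor of these macrophages, had 2 UMIs in chow and 95 in MASH (edgeR adjusted p = 0.0215), and 0.568 to 2.48 CPM against 14.7 and 25.9 CPM in comparators. Of 6 tested genes in the lipid-associated macrophage list 4 were higher and none was lower (median log2 3.66). Immune nuclei were 10.9% of cycling nuclei in chow and 18.4% in MASH on average, and the part of this make-up in the macrophage genes was not tested.

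Col1a1, the main chain of type I collagen, had no UMI in the chow cycling nuclei and 61.7 and 76.7 CPM in the MASH ones, at least 17.8-fold higher with the floor of 3 UMIs taken over the group (edgeR adjusted p = 0.00776). In comparators it had 1.89 to 4.53 CPM in chow and 34.2 and 56.1 CPM in MASH. Ntrk2, a neurotrophin receptor, had no UMI in chow and 48.1 and 31.4 CPM in MASH, at least 10.8-fold higher, and its comparators had 0 to 0.189 CPM in chow and 43.3 and 42.7 CPM in MASH. Gm21188 was at least 12.0-fold higher, with comparators at 0 to 1.42 CPM in chow and 15.9 and 26.7 CPM in MASH. Stellate nuclei, which make collagen, were 2.55% of cycling nuclei in chow and 8.66% in MASH on average, and their part in the Col1a1 value was not tested. Ciita, the switch for class II antigen presentation, was counted 2 times in chow and 106 times in MASH cycling nuclei, which is a ratio of 19.7 (exact counting interval 5.33 to 165). Its comparators had 1.51 to 9.07 CPM in chow and 18.4 and 26.6 CPM in MASH, a ratio of 4.55 (3.47 to 6.07). Rgs16, Fgf21 and Gm19619 were also higher, at log2 3.67, 3.59 and 4.12, and the MASH to chow ratios of their comparators were 16.0, 19.1 and 12.7.

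The 10 largest falls included 4 Mup genes, Hsd3b5 and a pair of Ugt2b genes. Mup7, a major urinary protein, had 176, 322 and 311 CPM in chow cycling nuclei and 1.60 and 0 CPM in MASH cycling nuclei, 225 against 2 UMIs, a chow to MASH ratio of 302 with an exact counting interval of 82.6 to 2509 (edgeR adjusted p = 0.00175). Its comparators had 263 to 409 CPM in chow and 4.94 and 0.638 CPM in MASH. Mup11 had 376, 538 and 663 CPM in chow and 11.2 and 1.16 CPM in MASH (log2 −6.42 ± 0.724), and 595 to 936 CPM against 17.0 and 5.32 CPM in comparators. Mup genes are near-identical copies, so counts of single members are uncertain. Mup1, Mup16, Hsd3b5 (a steroid dehydrogenase), Ugt2b37, Ugt2b38 and Gm15611 had no UMI in MASH cycling nuclei and were at least 54.6-fold, 33.1-fold, 24.2-fold, 18.8-fold, 15.2-fold and 17.0-fold lower. The chow to MASH ratios of their comparators were 122, 35.6, 490, 55.6, 103 and 116 in the same order. Iglc1, an immunoglobulin light chain, had 70.6, 45.5 and 56.8 CPM in chow and no UMI in MASH, at least 38.5-fold lower, and 0 to 25.2 CPM against 0.549 and 0.284 CPM in comparators. Egfros had log2 −6.11 (edgeR adjusted p = 0.0116), with a comparator ratio of 54.7. Hepatocyte nuclei were 12.4% of cycling nuclei in chow and 4.46% in MASH on average, and their part in these values was not tested.

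**Figure D5:**
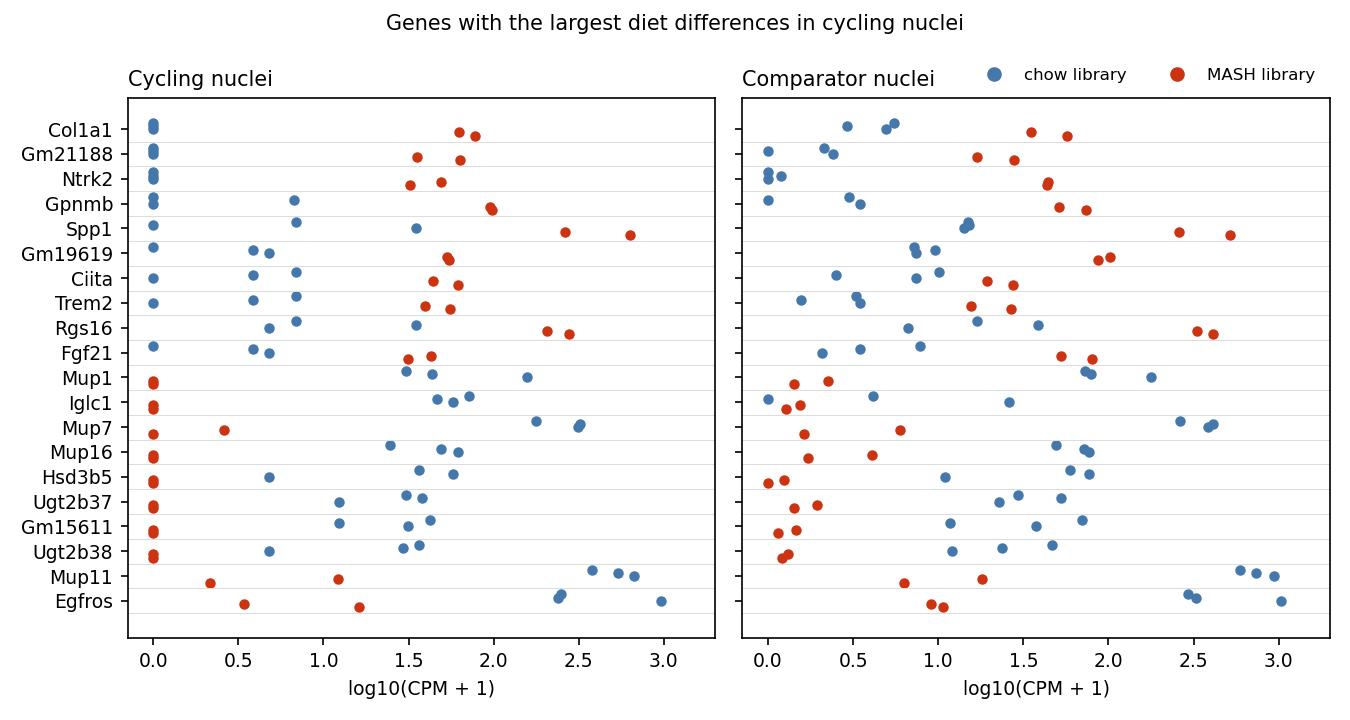
Levels of the 10 largest rises and 10 largest falls between diets as log10(CPM + 1) in each library, in cycling nuclei (left) and comparator nuclei (right), with chow in blue and MASH in red. The 3 chow and 2 MASH libraries separate for every gene in both panels, except that Iglc1 of 1 chow library lies at 0 in the comparators.

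The count of diet calls moved with single libraries: it was 332, 69 and 228 without chow replicates 1, 2 and 3, and 9 and 26 without MASH replicates 1 and 2. It was 28 in the single-lineage nuclei, 2 higher and 26 lower, and a block for the replicate number, over the libraries numbered 1 and 2, gave 278.

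Whether diet acted by another amount in cycling than in comparator nuclei was tested by an interaction term, and 34 of 12931 genes (0.263%) passed, 14 higher and 20 lower. E2f8, a repressor of the late cycle that liver uses in making polyploid hepatocytes, had 88.2, 54.1 and 15.1 CPM in chow cycling nuclei and 44.9 and 58.1 CPM in MASH ones. Its comparators had 44.5, 42.8 and 10.3 CPM in chow and 7.05 and 9.99 CPM in MASH. The interaction was 2.03 ± 0.339 on the log2 scale (edgeR adjusted p = 9.27e-06). Ckap2, a spindle protein, and Esco2, which acetylates cohesin in S phase, had interactions of 1.66 and 1.61. Haemoglobin genes had negative terms, Hbb-bt −7.04, Hbb-bs −4.52, Hba-a2 −3.69 and Hba-a1 −3.34. Hbb-bs had 712 CPM in the comparators of MASH replicate 1 and 29.8 to 94.6 CPM in the other comparator sums. In cycling nuclei it had 271 CPM in chow replicate 1 and 22.1 to 39.8 CPM in the other 4. The calls numbered 13 and 19 without chow replicates 2 and 3, 4 and 8 without MASH replicates 1 and 2, and 1 by DESeq2.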

How the data were processed

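Liver nuclei of 3 chow and 2 MASH libraries were profiled by 10x 3' single-nucleus RNA-seq. The values are raw UMI counts per gene and nucleus as deposited, made by the authors with Cell Ranger 8.0.1 (per the submitters' processing notes) on GRCm38, with introns left out. Nuclei with under 300 genes or at least 10% mitochondrial UMIs were dropped. Doublets were not removed, and nuclei of several lineages and the highest Scrublet scores were left out only as alternatives. Each library is 1 replicate, and p-values measure the spread between libraries. Shares were compared by exact permutation over libraries. UMIs summed per library over at least 10 cycling nuclei were tested with edgeR 4.0.16 (TMM, filterByExpr, quasi-likelihood, Benjamini-Hochberg threshold 0.05), without the 8 panel genes. Alternatives were DESeq2 1.42.0, Storey's q-values, other filters, thinning, other marker lists and leaving out each library. The text names the 15 largest rises (at least 20 UMIs) and 10 largest falls (at least 100 UMIs) with 1 direction in all libraries, 10 genes per direction for diet and interaction, and up to 4 members of a list by UMIs. Other genes, and the promoters shown, were chosen after their values were seen. Members and lists were chosen with earlier results of these data known.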

Additional observations from a re-analysis of the deposited data

Results flagged for a closer look

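The interaction term of diet with cycling, tested over all genes by edgeR's quasi-likelihood test, flagged genes whose MASH to chow difference was not the same in cycling and comparator nuclei. The positive terms on the log2 scale were Meg3 3.07, E2f8 2.03, Ckap2 1.66, Esco2 1.61, Crybg3 1.33, Piga 1.31, Socs2 1.08, Cyp4a14 0.98, Saa2 0.96 and Cyp2c70 0.89. The negative terms were Hbb-bt −7.04, Hbb-bs −4.52, Ly6c2 −4.40, Mzb1 −3.87, Sytl2 −3.73, S100a9 −3.72, Hba-a2 −3.69, Itpr3 −3.51, Car2 −3.42 and Hba-a1 −3.34. S100a9 had 2559 CPM in the cycling nuclei of chow replicate 1 and 716 CPM in their comparators, against at most 7.57 CPM in every other sum. These 20 genes were the 10 largest terms in each direction among the 34 that passed, and DESeq2 called 1 gene.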

How the results depend on the processing

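The difference in cycling share between diets kept its direction under every alternative run, at 0.521 to 2.25 percentage points, with an exact p of 0.1 wherever all 5 libraries entered the test. The count of genes that differed between cycling and comparator nuclei was 1284 by DESeq2, 164 without the library block, 672 in single-lineage nuclei and 1267 to 2321 with 1 library left out, against 2406. The count of diet calls was 694 without a filter on low counts, 250 with Storey's q-values, 28 in single-lineage nuclei and 9 to 332 with 1 library left out, against 147. The interaction count was 1 by DESeq2 and 4 to 28 with 1 library left out, against 34. The make-up difference for endothelial nuclei was 1.22 points, −0.632 with the longer marker lists, and −0.993 to 3.55 with 1 library left out, where −0.554 was without chow replicate 1. That for several lineages was 2.92 points, −3.78 with at least 4 panel genes, and −1.43 to 7.26 with 1 library left out. The cause of these changes was not tested. Of the single genes named, 500 values kept their call and 148 lost it, and none reversed. Replicate numbers were treated as numbers only. Same-numbered chow and MASH libraries had correlations of −0.0603 and −0.127 in their deviations. With 2 MASH libraries the deviations of 1 mirror those of the other, so these values cannot show whether libraries were paired. With the replicate block the diet calls were 278, of which 135 were among the 147, and the share difference was 1.42 points. Few cycling nuclei per lineage in chow, 0 to 12, limit every comparison within a lineage.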
